A study of Chlamydomonas reinhardtii with 9 samples.

Results

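The 31 genes described here are those that the deposited table of 17609 gene models of the unicellular green alga Chlamydomonas reinhardtii names as cytochrome P450 genes, with a symbol made of CYP, a family number and, where given, a subfamily letter and a member number. They were chosen by name and not by any measured value. Their transcripts were followed in polyA RNA of 3 strains, with 3 cultures of each and 1 library per culture. The mutant, strain B6-F (CC-4509), carried the cehc1-1 mutation. The rescued strain, B6-F_resc (CC-5386), was that mutant transformed with a wild-type CEHC1 gene, and the wild type was strain B6 (CC-4507). All 3 strains were grown with aeration in the acetate medium TAP in cycles of 14 h light and 10 h darkness and were sampled 6 h into the light. Each genotype was represented by 1 strain, so genotype and any other difference between the strains cannot be told apart.

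Cytochrome P450 enzymes hold a heme bound through a cysteine and mostly insert 1 oxygen atom into a substrate. They need an electron donor, usually an NADPH-dependent reductase or a ferredoxin. In plants and algae they hydroxylate carotenes on the way to lutein and remove a methyl group from sterol precursors. Members of the CYP55 family are an exception, since they reduce nitric oxide to nitrous oxide and use no oxygen. Most P450 families of Chlamydomonas are known by number alone, and no role is given for them here. The cehc1-1 strain was studied by its authors in relation to the copper response regulator CRR1, whose targets respond to shortage of copper and of oxygen.

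Levels are given as deposited, in FPKM (fragments per kilobase of transcript, scaled to the depth of the library), which allows genes to be compared with each other. No source used here gives the numbers of fragments. Over all genes, the FPKM of a library added up to 888153 to 1002223 in the rescued strain, 592929 to 645234 in the mutant and 970073 to 1108532 in the wild type. FPKM are relative to the rest of a library, so fewer transcripts per cell, another mix of cell states in the culture and a change in other transcripts cannot be told apart. Differences are between means of log2(FPKM + 1), a scale that understates changes of genes with low FPKM, and adjusted p-values are from limma with Benjamini-Hochberg adjustment over 11360 genes. A gene is said to be called, and to have risen or fallen, when its adjusted p was under 0.05 and its difference at least 1 in size. A gene past the adjusted p alone is said to be higher or lower. The median difference over all tested genes was -0.13 in the mutant against the wild type, which rescaling of the libraries by median ratios moved to -0.01. CEHC1 itself (Cre01.g005900_4532) was at 26.5 ± 1.31 FPKM in the rescued strain, 17.2 ± 0.967 FPKM in the mutant and 8.64 ± 1.41 FPKM in the wild type (SD, n = 3 each). The sources used here do not describe the lesion, so this level does not check the genotype.

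The P450 genes spanned the range from undetected to 85.6 FPKM. CYP747A1 (Cre01.g003850_4532), CYP51G1 (Cre02.g092350_4532) and CYP97A5 (Cre02.g142266_4532) had the highest means over the 9 libraries, with 71.6, 53.7 and 37.0 FPKM. The first place differed between strains. CYP747A1 was the highest P450 gene in every library of the rescued strain and of the wild type, and CYP51G1 in every mutant library. Between 20 and 21 of the 31 genes reached 1 FPKM in each library. CYP24 (Cre07.g357150_4532) was at 0 in all 9, and CYP743A1, CYP748A1 and CYP767A1 had a value above 0 in at most 2 libraries. The remaining genes lay between, as the plot of levels shows.

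**Figure D1:**
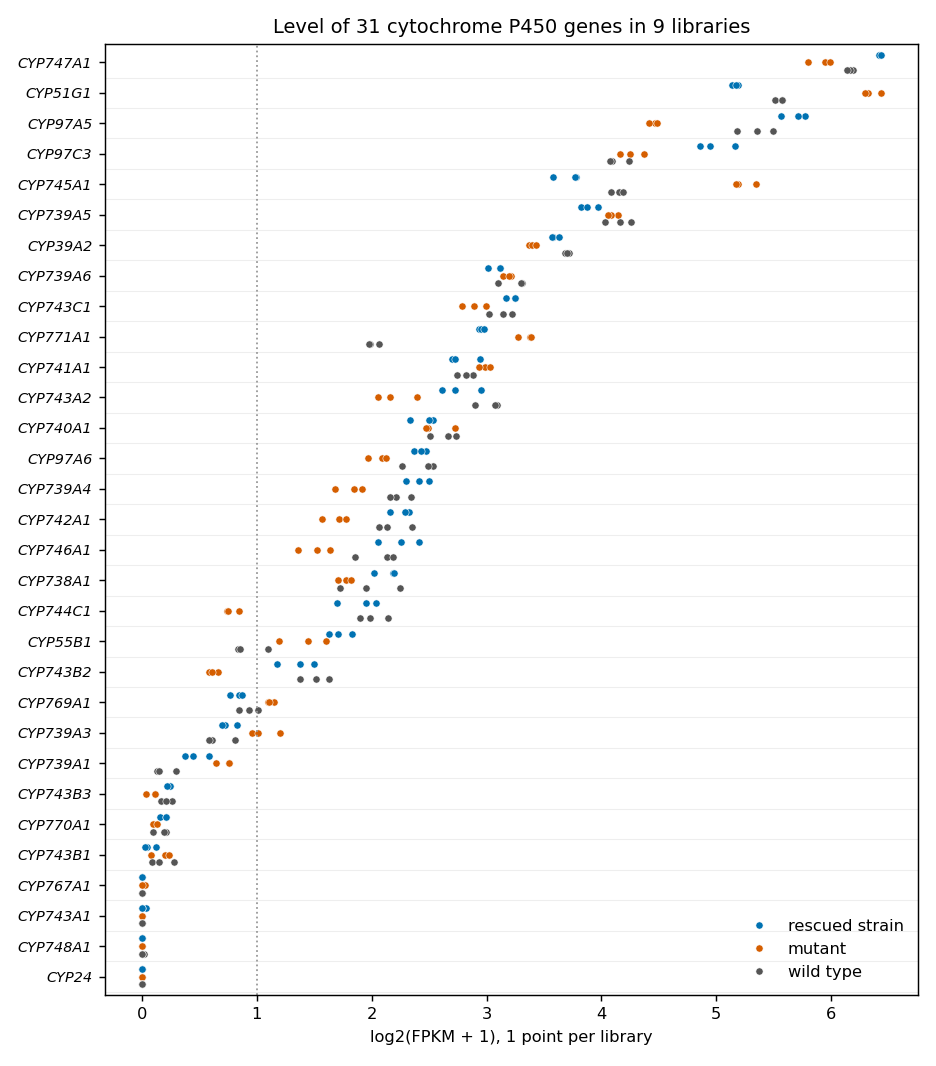
Levels of the 31 P450 genes as log2(FPKM + 1), 1 point per library, with the rescued strain above the mutant and the mutant above the wild type in each row, and genes ordered by their mean FPKM. The dotted line marks 1 FPKM. The mutant points stand to the right of the others for CYP51G1, CYP745A1 and CYP771A1, and to the left for CYP97A5, CYP743B2 and CYP744C1.

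Summed over the 31 genes, the P450 transcripts came to 296, 312 and 308 FPKM in rescued libraries, 296, 290 and 309 FPKM in mutant libraries and 285, 277 and 283 FPKM in wild-type libraries. The lowest mutant library was above the highest wild-type library. As a share of all FPKM, which were fewer in the mutant, the sum was 0.0318% ± 0.0014 in the rescued strain, 0.0484% ± 0.00055 in the mutant and 0.0270% ± 0.0015 in the wild type (SD, n = 3 each). The make-up of the sum differed. CYP51G1 held 11.4% ± 0.521 of the P450 sum in the rescued strain, 26.9% ± 0.584 in the mutant and 16.3% ± 0.165 in the wild type. CYP97A5 held 16.5% ± 0.814 of it in the rescued strain, 7.02% ± 0.400 in the mutant and 14.1% ± 1.44 in the wild type.

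The mutant was set against the wild type, which addresses the effect of the cehc1-1 mutation. Of the 31 genes, 21 passed the minimum mean of 1 FPKM over all libraries. Of these, 2 rose (CYP771A1 and CYP745A1) and 1 fell (CYP744C1). The 3 calls were 14.3% of the members tested, beside 9.4% of all genes tested, of which 4.6% rose and 4.8% fell. By the adjusted p alone, 4 members were higher and 11 lower, 19% and 52.4% of the 21. Among all genes tested, 25.8% were higher and 40.5% lower by that criterion. In both directions together these were 71.4% of the members and 66.2% of all genes, so the share of members is near the background. The libraries of both strains did not overlap for 16 members, 76.2%, beside 71.4% of all genes. After rescaling by median ratios the split was 6 higher and 9 lower, and after quantile normalization 7 and 9. The median difference of the 21 members was -0.24. It was -0.30 for the 14 members with a mean of 1 to 10 FPKM, where the median of all genes in that range was 0.04, and -0.05 for the 7 members at 10 to 100 FPKM, where it was -0.42 for all genes. The remaining 6 members did not pass the adjusted p threshold.

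**Figure D2:**
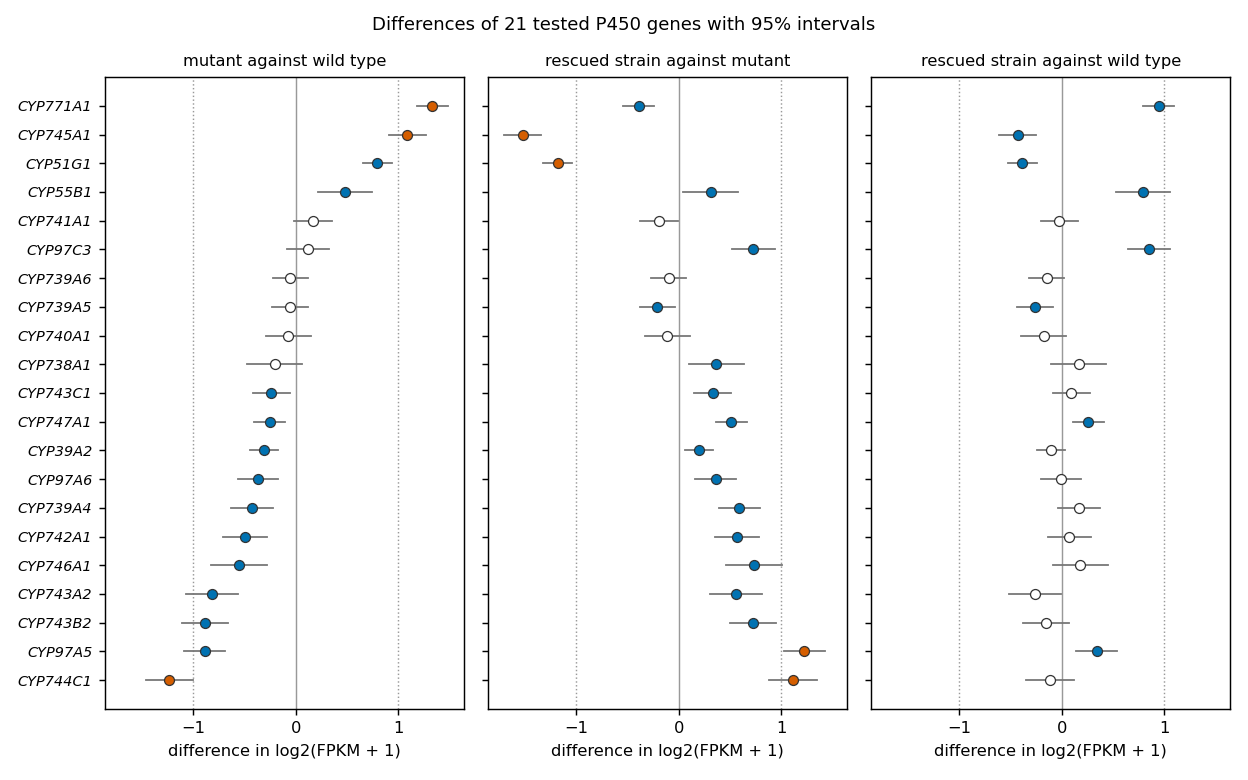
Differences in log2(FPKM + 1) of the 21 tested P450 genes in the 3 comparisons, with 95% intervals from limma and the genes ordered by the mutant difference from the wild type. Orange points were called, blue points had an adjusted p under 0.05 with a smaller difference, white points had neither, and dotted lines mark differences of -1 and 1. In the right panel, rescued strain against wild type, no point reaches 1 in either direction.

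CYP51G1 encodes the sterol 14-demethylase, the P450 enzyme shared by sterol synthesis of plants, fungi and animals and the target of azole fungicides. Its level was 35.5, 34.1 and 35.1 FPKM in the rescued strain, 78.7, 77.3 and 85.3 FPKM in the mutant and 46.4, 44.7 and 46.5 FPKM in the wild type. The mutant libraries were all above the wild-type libraries, which were in turn all above those of the rescued strain. Mean FPKM was 1.75 times as high in the mutant as in the wild type, a difference of 0.80 (SE 0.06, adjusted p 5.1e-06), which is below the minimum for a call. It passed that minimum only after quantile normalization, with 1.37 (adjusted p 1.3e-07). In the rescued strain CYP51G1 fell relative to the mutant by 1.18 (SE 0.06, adjusted p 3.3e-07), and it was lower than in the wild type, with a difference of -0.39 (adjusted p 0.0014).

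Other genes of sterol synthesis did not move as 1 group. Of 7 listed genes that were matched and tested, 2 were higher and 4 lower in the mutant by the adjusted p, with 1 called as higher. Among all genes, 25.8% were higher, 40.5% lower and 4.6% called as higher. The median of the list was -0.57. The higher ones were SQE1, the squalene epoxidase, and ERG3, named after the C-5 sterol desaturase of yeast. Both enzymes use oxygen, as CYP51 does. So does the P450 enzyme encoded by ERG5 in yeast, and ERG5 was among the lower genes here. A link to oxygen use was not tested. SQE1 was at 14.6 ± 0.999 FPKM in the rescued strain, 46.6 ± 4.47 FPKM in the mutant and 18.9 ± 2.06 FPKM in the wild type, and rose in the mutant against the wild type by 1.26 (SE 0.10, adjusted p 4.3e-06). ERG3 was at 39.1 ± 4.12 FPKM in the rescued strain, 93.0 ± 6.96 FPKM in the mutant and 54.2 ± 2.25 FPKM in the wild type, a difference of 0.77 (SE 0.09, adjusted p 4.1e-05). The lower ones included FPS1 and SQS1, for farnesyl diphosphate and squalene synthase, with differences of -0.67 and -0.57, ERG4 with -0.73 and ERG5 with -0.76. After quantile normalization these 4 were at -0.23, -0.28, -0.45 and -0.74, in that order. ERG3 was then called, at 1.34 (adjusted p 2.1e-06), and the median of the list was -0.23. Of the 7 genes, 5 had a mean of 10 to 100 FPKM, with a median of -0.57 beside -0.42 for all genes in that range. The part of that general shift in the sterol values was not tested. SMT1, the sterol methyltransferase, was at 119 ± 5.94 FPKM in the rescued strain, 226 ± 9.53 FPKM in the mutant and 240 ± 18.4 FPKM in the wild type. Its difference of mutant from wild type was -0.08 (adjusted p 0.369), and it fell in the rescued strain relative to the wild type by 1.01 (adjusted p 2.2e-05). That call was lost by a small margin under both rescalings, at -0.95 (adjusted p 2.5e-05) after median ratios and at -0.92 (adjusted p 3.1e-05) after the quantile one, and under quantile normalization the mutant exceeded the wild type in SMT1, by 0.50 (adjusted p 2.1e-04).

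ERG5 is itself a P450 gene by name in yeast, where it encodes the C-22 sterol desaturase, but its symbol here does not begin with CYP and it is not among the 31. It had 9.18, 9.82 and 8.97 FPKM in the rescued strain, 3.52, 4.28 and 3.90 FPKM in the mutant and 7.14, 7.29 and 7.45 FPKM in the wild type. The mutant libraries were all below the others, opposite in direction to CYP51G1 of the same pathway. The difference of mutant from wild type was -0.76 (SE 0.08, adjusted p 1.7e-05), and ERG5 rose in the rescued strain against the mutant by 1.08 (SE 0.08, adjusted p 1.5e-06). CYP744A5P, whose symbol ends in a further letter and was therefore also outside the rule, was at 5.59 ± 0.867 FPKM in the rescued strain, 5.97 ± 0.799 FPKM in the mutant and 4.40 ± 0.352 FPKM in the wild type, with the mutant above the wild type by 0.36 (adjusted p 0.016), a difference that did not pass the threshold without wild-type replicate 3 or mutant replicate 2.

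The CYP97 family holds the plastid carotene hydroxylases. In plants, the CYP97A and CYP97C enzymes hydroxylate the rings of carotenes to give lutein. CYP97A5 had 46.2, 53.7 and 51.3 FPKM in the rescued strain, 21.1, 21.3 and 20.3 FPKM in the mutant and 40.0, 35.2 and 44.0 FPKM in the wild type. All mutant libraries were at about the same low level, and the rescued libraries were all above the wild-type ones. The mutant mean was 0.527 times that of the wild type, a difference of -0.89 (SE 0.09, adjusted p 1.7e-05) that missed the minimum for a call. This difference was -0.75 (adjusted p 3.7e-05) after median ratios and -0.49 (adjusted p 2.4e-04) after quantile normalization. The median over all genes with a mean of 10 to 100 FPKM, the range of CYP97A5, was -0.42 without rescaling. CYP97A5 rose in the rescued strain against the mutant by 1.23 (SE 0.09, adjusted p 1.9e-06). This call was lost after quantile normalization by a narrow margin, at 0.99 (adjusted p 1.8e-06).

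CYP97C3 (Cre08.g373100_4532) was different. It had 28.0, 34.8 and 29.7 FPKM in the rescued strain, 16.9, 18.0 and 19.6 FPKM in the mutant and 17.9, 16.0 and 15.9 FPKM in the wild type, so the mutant and wild-type libraries overlapped and the rescued libraries stood above both. Its difference of mutant from wild type was 0.12 (SE 0.09, adjusted p 0.269), with a 95% interval of -0.09 to 0.33. Under the rescalings it was higher in the mutant, by 0.26 (adjusted p 0.033) after median ratios and by 0.44 (adjusted p 0.0017) after the quantile one. The rescued strain exceeded the wild type by 0.85 (SE 0.09, adjusted p 1.9e-04) and the mutant by 0.73 (SE 0.09, adjusted p 9.7e-05). CYP97A6 (Cre16.g678437_4532) was the least abundant of the family, at 4.36 ± 0.184 FPKM in the rescued strain, 3.18 ± 0.228 FPKM in the mutant and 4.40 ± 0.537 FPKM in the wild type. The mutant was below the wild type, with a difference of -0.37 (SE 0.09, adjusted p 0.0041), and the 95% interval of rescued strain against wild type was -0.20 to 0.19.

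Most listed genes of the carotenoid pathway and of its precursor supply were also lower in the mutant. Of 9 carotenoid genes tested, 3 fell in the mutant against the wild type, 7 were lower by the adjusted p and none was higher, with a median difference of -0.83. Among all genes tested, 4.8% fell and 40.5% were lower, with a median of -0.13. ZDS1, PDS1 and CRTISO1, which desaturate and isomerise phytoene to lycopene, were the 3 that fell, by 1.15, 1.05 and 1.03. PDS1 was at 114 ± 9.97 FPKM in the rescued strain, 40.1 ± 1.28 FPKM in the mutant and 84.6 ± 8.79 FPKM in the wild type. The non-heme carotene hydroxylase CHYB1 was lower by the adjusted p, with -0.51 (adjusted p 7.9e-04), but not after quantile normalization, while the lycopene epsilon cyclase LCYE1, which acts on the lutein branch with CYP97C, had a difference of 0.12 (adjusted p 0.167). In the rescued strain against the mutant, 5 rose (ZDS1, CRTISO1, PDS1, BKT1 and PSY1), beside 5.41% of all genes, and the median was 1.09. PSY1 was just under the minimum for a call after median ratios and at 0.74 (adjusted p 5.9e-05) after quantile normalization. The rescalings also brought mutant differences under that minimum. After median ratios ZDS1 was still called, at -1.02 (adjusted p 1.1e-05), and PDS1 and CRTISO1 were at -0.91 (adjusted p 1.5e-05) and -0.89 (adjusted p 4.1e-05). After quantile normalization ZDS1, CRTISO1 and PDS1 were at -0.76 (adjusted p 5.0e-05), -0.71 (adjusted p 8.8e-05) and -0.57 (adjusted p 9.9e-05), while LCYE1 and ZEP1 were higher in the mutant and the median of the list was -0.35.

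Of 9 genes of the plastid MEP pathway and its products, which supply the isoprenoid units of carotenoids and, in this alga, of sterols, 5 fell in the mutant against the wild type (GGPS1, CMK1, DXR1, MEC1 and CMS1) and all 9 were lower by the adjusted p, with a median of -1.14, beside 4.8% and 40.5% of all genes. GGPS1, the geranylgeranyl diphosphate synthase, was at 232 ± 24.2 FPKM in the rescued strain, 54.1 ± 3.19 FPKM in the mutant and 158 ± 20.5 FPKM in the wild type, a difference of -1.52 (SE 0.11, adjusted p 3.1e-06). In the rescued strain against the mutant, 8 rose (DXS1, DXR1, CMS1, CMK1, MEC1, HDS1, IDS1 and GGPS1, all of the list but IDI1), with a median of 1.48, beside 5.41% of all genes. Quantile normalization left 6 of these calls, with DXS1 at 0.57 (adjusted p 3.3e-05) and IDS1 at 0.54 (adjusted p 9.2e-06). Without it DXS1 was at 1.14. In the mutant, median ratios left 4 calls and quantile normalization 1 (GGPS1), with all 9 differences below 0 under both. By the adjusted p, 8 were lower under each. IDI1 did not pass, at -0.08 (adjusted p 0.343) after median ratios and -0.02 (adjusted p 0.805) after quantile normalization. Abundant genes in general were lower in the mutant. The median over all 3083 genes with a mean of 10 to 100 FPKM was -0.42, and over all 504 genes of 100 to 1000 FPKM it was -0.73. In these ranges 7.46% and 26% of genes fell in the mutant against the wild type. In the rescued strain against the mutant, 8.98% and 26.2% rose. DXS1, MEC1, HDS1, IDS1 and GGPS1 had means above 100 FPKM, so the share over all genes is a low background for them. The part of that general shift in the pathway values was not tested.

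**Figure D3:**
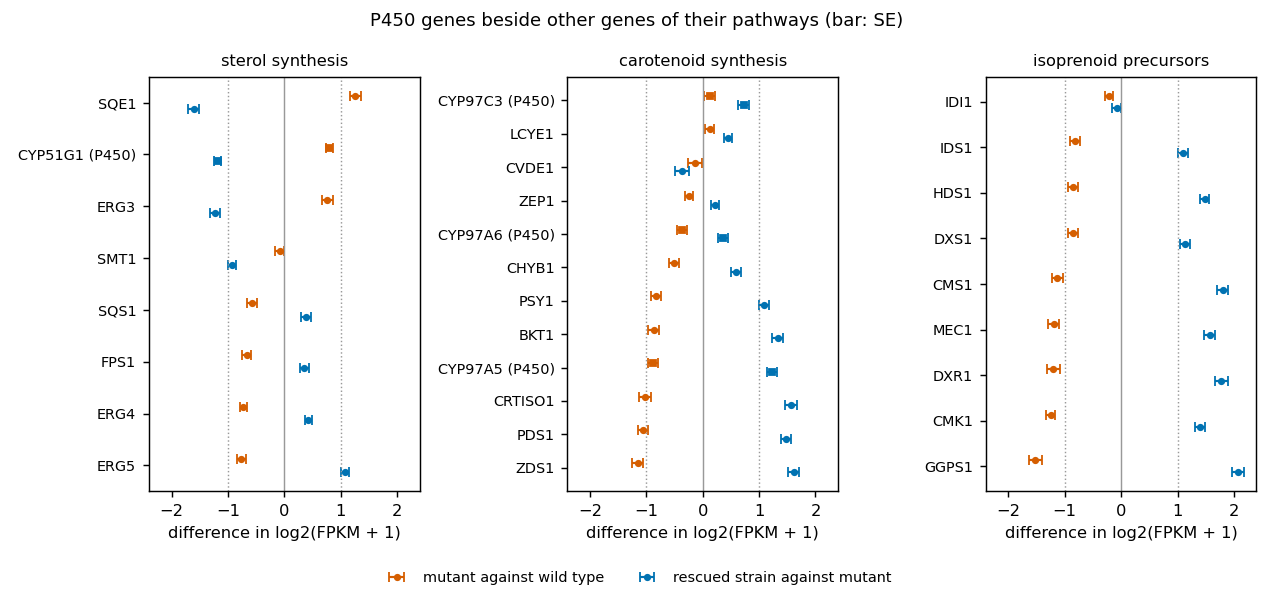
Differences in log2(FPKM + 1) of the mutant from the wild type (orange) and of the rescued strain from the mutant (blue), with SE from limma, for P450 genes (marked P450 beside the symbol) and listed genes of 3 pathways, with dotted lines at -1 and 1. SQE1, CYP51G1 and ERG3 lie to the right of 0 in the mutant and the other sterol genes to the left, while CYP97A5 lies among the carotenoid genes with negative mutant differences.

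CYP55B1 (Cre01.g007950_4532), the nitric oxide reductase, was a gene of low level in all libraries. It had 2.27, 2.55 and 2.10 FPKM in the rescued strain, 1.72, 2.04 and 1.28 FPKM in the mutant and 0.783, 0.802 and 1.14 FPKM in the wild type. The wild-type libraries were all below the others, and those of the rescued strain were all above those of the mutant. The mean of the rescued strain was 2.54 times and that of the mutant 1.85 times the wild-type mean. The differences were 0.80 (SE 0.12, adjusted p 8.5e-04) for rescued strain against wild type and 0.48 (SE 0.12, adjusted p 0.0045) for mutant against wild type, none of them called. With a pseudocount of 0.1 in place of 1, the difference of rescued strain from wild type was 1.27 and was called. After quantile normalization the difference of mutant from wild type was 0.21 (adjusted p 0.168). Against the mutant, the rescued strain differed by 0.31 (adjusted p 0.045). The adjusted p was above 0.05 under most alternatives run. It was 0.25 (adjusted p 0.084) after median ratios, 0.31 (adjusted p 0.06) with the replicate number as a block and 0.20 (adjusted p 0.176) without mutant replicate 3. Among 15 listed genes of nitrate and nitric oxide metabolism, 11 were tested, and 4 rose in the mutant against the wild type, beside 4.6% of all genes. These were the hybrid cluster protein genes HCP1, HCP3, HCP4 and HCP2, with differences of 3.91, 2.36, 2.36 and 1.39. All 4 fell in the rescued strain against the mutant, as did GSNOR1, with -1.22 (adjusted p 2.2e-04), beside 3.77% of all genes. GSNOR2 was higher in that comparison, with 0.53 (adjusted p 4.4e-04), and lower in the mutant against the wild type, with -0.60 (adjusted p 1.4e-04). HCP1, HCP3 and HCP4 passed the minimum mean only through the mutant. That filter therefore partly set the count of rises in the mutant and of falls in the rescued strain against the mutant. Their means were 14.5, 7.02 and 5.87 FPKM in the mutant. They were 0.007, 0.479 and 0.763 FPKM in the rescued strain and 0.0285, 0.567 and 0.323 FPKM in the wild type. NII1, the nitrite reductase gene, was lower in the mutant, with -0.99 (adjusted p 1.8e-05), just short of a call. It was called with a pseudocount of 0.1, at -1.25 (adjusted p 1.8e-05), after quantile normalization, at -1.08 (adjusted p 2.5e-05), and without wild-type replicate 2 or mutant replicate 3. Of the 11, 6 were higher and 2 lower in the mutant by the adjusted p, beside 25.8% and 40.5% of all genes, and the nitrate reductase gene NIA1 was listed at 0 in all 9 libraries.

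The 3 P450 genes called in the mutant belong to families with no role given here. CYP771A1 (Cre08.g384000_4532) had 6.64, 6.73 and 6.85 FPKM in the rescued strain, 9.37, 8.66 and 9.48 FPKM in the mutant and 2.96, 3.19 and 2.93 FPKM in the wild type. All mutant libraries exceeded all rescued ones, and all of those exceeded the wild type. It rose in the mutant against the wild type by 1.34 (SE 0.07, adjusted p 2.8e-07), 3.03 times in mean FPKM. The rescued strain was lower than the mutant, with -0.39 (adjusted p 7.0e-04), and still 2.23 times the wild type, with a difference of 0.94 (SE 0.07, adjusted p 1.5e-05). The rescued level lay between the other two strains. With a pseudocount of 5 the mutant difference was 0.82 and not a call.

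CYP745A1 (Cre05.g234100_4532) had 12.8, 10.9 and 12.6 FPKM in the rescued strain, 35.4, 34.9 and 39.5 FPKM in the mutant and 15.9, 16.8 and 17.2 FPKM in the wild type. It rose in the mutant against the wild type by 1.09 (SE 0.08, adjusted p 3.6e-06), 2.20 times in mean FPKM. In the rescued strain it fell below the mutant by 1.52 (adjusted p 3.0e-07), to a level lower than in the wild type as well, with a difference of -0.43 (SE 0.08, adjusted p 0.0027). With a pseudocount of 5 the mutant difference was 0.94 and not a call. The order of the strains, rescued strain lowest and mutant highest with no overlap, was that of CYP51G1.

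CYP744C1 (Cre16.g648200_4532) was the P450 gene with the largest fall in the mutant. It had 2.24, 3.12 and 2.86 FPKM in the rescued strain, 0.791, 0.675 and 0.679 FPKM in the mutant and 2.97, 2.72 and 3.42 FPKM in the wild type. The rescued and wild-type libraries overlapped and the mutant libraries were far below both, at 0.236 times the wild-type mean. The differences were -1.23 (SE 0.10, adjusted p 6.9e-06) for mutant against wild type and 1.12 (SE 0.10, adjusted p 9.8e-06) for rescued strain against mutant. The 95% interval for rescued strain against wild type was -0.35 to 0.12. Its difference depended on the pseudocount, and with a pseudocount of 5 it was -0.49 in the mutant, and the rescued strain differed from the mutant by 0.44, so that neither was a call.

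CYP747A1, the P450 gene of highest mean FPKM, had 84.3, 84.5 and 85.6 FPKM in the rescued strain, 60.6, 54.5 and 62.7 FPKM in the mutant and 71.9, 70.7 and 69.5 FPKM in the wild type. Its strains did not overlap, with the rescued strain highest and the mutant lowest. The difference of mutant from wild type was -0.25 (SE 0.07, adjusted p 0.0071). Its sign depended on the scaling, since it was -0.11 (adjusted p 0.181) after median ratios and 0.29 (adjusted p 0.006) after quantile normalization. The rescued strain exceeded the wild type by 0.26 (SE 0.07, adjusted p 0.012), and by 0.31 with median ratios and 0.38 with quantile normalization. Its difference from the mutant was 0.51 (SE 0.07, adjusted p 1.1e-04), or 0.09 (adjusted p 0.294) after quantile normalization. CYP747A1 and CYP55B1 are the P450 genes nearest to CEHC1 on chromosome 1. In the gene order of assembly Chlamydomonas_reinhardtii_v5.5, 43 genes lie between CYP747A1 and CEHC1, and 49 between CEHC1 and CYP55B1. Both were among the 5 of 21 members that were higher in the rescued strain than in the wild type by the adjusted p, beside 18.5% of all genes. In the mutant against the wild type, CYP747A1 was at -0.25 and CYP55B1 at 0.48. A link to the position was not tested.

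**Figure D4:**
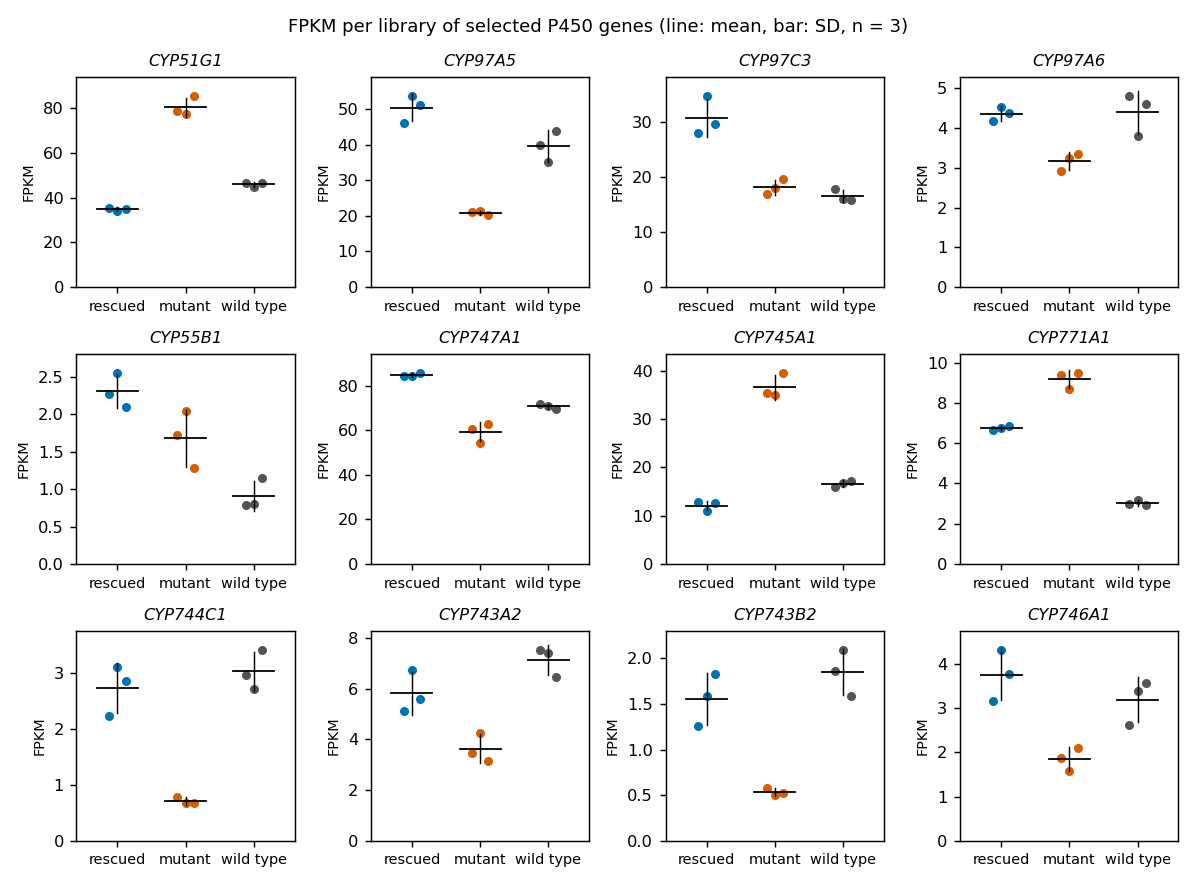
FPKM of selected P450 genes in each library (points) of the rescued strain, the mutant and the wild type, with the mean (horizontal line) and SD (vertical bar, n = 3), each panel with its own linear axis from 0. The mutant stands above both other strains for CYP51G1, CYP745A1 and CYP771A1 and below both for CYP97A5, CYP97A6, CYP747A1, CYP744C1, CYP743A2, CYP743B2 and CYP746A1.

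The CYP743 family was represented by 6 genes, 3 of them above the minimum. CYP743B2 (Cre07.g354400_4532) had 1.25, 1.59 and 1.82 FPKM in the rescued strain, 0.580, 0.500 and 0.529 FPKM in the mutant and 1.86, 2.09 and 1.59 FPKM in the wild type. The mutant libraries were all well below the others, at 0.290 times the wild-type mean. The difference of mutant from wild type was -0.89 (SE 0.10, adjusted p 3.5e-05), and it was a call with a pseudocount of 0.1 (-1.61) and after quantile normalization (-1.14). CYP743A2 (Cre07.g340850_4532) had 5.11, 6.75 and 5.60 FPKM in the rescued strain, 3.46, 4.26 and 3.16 FPKM in the mutant and 7.53, 7.42 and 6.46 FPKM in the wild type, and its mutant difference from the wild type was -0.82 (SE 0.11, adjusted p 1.3e-04). CYP743C1 (Cre14.g626400_4532) was at 8.33 ± 0.303 FPKM in the rescued strain, 6.43 ± 0.525 FPKM in the mutant and 7.76 ± 0.613 FPKM in the wild type, a difference of -0.24 (adjusted p 0.024) that did not pass the threshold under either rescaling, nor without wild-type replicate 1 or 2 or mutant replicate 2 or 3. CYP743B1, CYP743B2 and CYP743B3 lie side by side in the gene order of assembly v5.5. CYP743B3, at 0.179 ± 0.0119 FPKM in the rescued strain, 0.0628 ± 0.0330 FPKM in the mutant and 0.161 ± 0.0393 FPKM in the wild type, was lowest in the mutant like its neighbour, and every mutant library was below every wild-type library. CYP743B1, at 0.0445 ± 0.0379 FPKM in the rescued strain, 0.126 ± 0.0631 FPKM in the mutant and 0.128 ± 0.0765 FPKM in the wild type, overlapped between all strains. The sources used here do not say how fragments shared by such related genes were assigned, so the split between them is uncertain.

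The CYP739 genes lie near each other on chromosome 10, together with the gene named CYP39A2. In the gene order of assembly v5.5, 0 to 6 other genes lie between successive members of this group. CYP739A5 was at 13.8 ± 0.799 FPKM in the rescued strain, 16.1 ± 0.557 FPKM in the mutant and 16.8 ± 1.42 FPKM in the wild type and CYP739A6 at 7.49 ± 0.345 FPKM in the rescued strain, 8.09 ± 0.204 FPKM in the mutant and 8.43 ± 0.736 FPKM in the wild type. Their differences of mutant from wild type had 95% intervals of -0.23 to 0.12 and -0.22 to 0.12. Both turned positive under the rescalings, and CYP739A5 passed the adjusted p threshold after quantile normalization, at 0.25 (adjusted p 0.031). CYP39A2 was at 11.1 ± 0.258 FPKM in the rescued strain, 9.52 ± 0.228 FPKM in the mutant and 12.0 ± 0.148 FPKM in the wild type, with the mutant below the wild type by a difference of -0.30 (adjusted p 0.0013), which did not pass after quantile normalization. CYP739A4, next to CYP739A5, was at 4.31 ± 0.369 FPKM in the rescued strain, 2.52 ± 0.286 FPKM in the mutant and 3.72 ± 0.322 FPKM in the wild type, and its difference of mutant from wild type was -0.42 (adjusted p 0.0021). CYP739A1 had 0.497, 0.296 and 0.359 FPKM in the rescued strain, 0.566, 0.687 and 0.690 FPKM in the mutant and 0.0961, 0.229 and 0.107 FPKM in the wild type, with a mutant mean 4.50 times that of the wild type. CYP739A3 had 0.775, 0.650 and 0.618 FPKM in the rescued strain, 1.30, 0.943 and 1.02 FPKM in the mutant and 0.751, 0.525 and 0.498 FPKM in the wild type. Both were under the minimum mean. When no minimum was set, their differences of mutant from wild type were 0.53 (SE 0.07, adjusted p 1.6e-04) and 0.39 (SE 0.08, adjusted p 0.0034). The group thus held genes lower, higher and without a detected difference in the mutant.

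Of the single-member families, CYP746A1 (Cre01.g038500_4532) was at 3.75 ± 0.576 FPKM in the rescued strain, 1.85 ± 0.268 FPKM in the mutant and 3.19 ± 0.509 FPKM in the wild type and CYP742A1 (Cre16.g659200_4532) at 3.79 ± 0.275 FPKM in the rescued strain, 2.22 ± 0.234 FPKM in the mutant and 3.55 ± 0.477 FPKM in the wild type. In both the mutant was below the wild type, with differences of -0.55 (SE 0.12, adjusted p 0.0024) and -0.50 (SE 0.10, adjusted p 0.0011), and the rescued and wild-type libraries overlapped in both. CYP738A1 was at 3.40 ± 0.290 FPKM in the rescued strain, 2.41 ± 0.129 FPKM in the mutant and 2.97 ± 0.729 FPKM in the wild type. CYP740A1 was at 4.49 ± 0.388 FPKM in the rescued strain, 4.93 ± 0.596 FPKM in the mutant and 5.22 ± 0.497 FPKM in the wild type. CYP741A1 was at 5.94 ± 0.659 FPKM in the rescued strain, 6.92 ± 0.257 FPKM in the mutant and 6.04 ± 0.338 FPKM in the wild type. None of these 3 genes passed the adjusted p threshold in the mutant against the wild type, with differences of -0.20, -0.07 and 0.17 and intervals of -0.47 to 0.07, -0.29 to 0.15 and -0.02 to 0.35. Both rescalings put CYP741A1 past it, at 0.29 (adjusted p 0.01) for median ratios and at 0.26 (adjusted p 0.022) for quantiles. Quantile normalization also put CYP738A1 past it, at -0.34 (adjusted p 0.029). The sign of CYP740A1 turned under median ratios. CYP769A1, just under the minimum mean, was at 0.776 ± 0.0637 FPKM in the rescued strain, 1.17 ± 0.0403 FPKM in the mutant and 0.909 ± 0.112 FPKM in the wild type, and CYP770A1 at 0.144 ± 0.0241 FPKM in the rescued strain, 0.0806 ± 0.0155 FPKM in the mutant and 0.124 ± 0.0467 FPKM in the wild type. With no minimum, the mutant differed from the wild type by 0.18 in CYP769A1 (adjusted p 0.027) and by -0.06 in CYP770A1 (adjusted p 0.193).

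The comparison of rescued strain with mutant asks which genes respond when CEHC1 is put back. It shares the mutant libraries with the previous comparison, so the values are not independent of those above. Of the 21 members, 2 rose (CYP97A5 and CYP744C1) and 2 fell (CYP745A1 and CYP51G1), 19% of the members beside 9.18% of all genes tested, of which 5.41% rose and 3.77% fell. By the adjusted p alone, 14 were higher and 4 lower, 66.7% and 19% of the 21, where 33.1% and 25% of all genes were. Together these were 85.7% of the members and 58.1% of all genes. The libraries did not overlap for 19 members, 90.5%, beside 66.5% of all genes. After rescaling by median ratios the split was 12 and 5, and after quantile normalization also 12 and 5, with 1 rise and 2 falls called. The median difference was 0.36 for the members and 0.05 for all genes. At 1 to 10 FPKM it was 0.36 for 14 members and -0.04 for all genes. At 10 to 100 FPKM it was 0.20 for 7 members and 0.23 for all genes. With a minimum mean of 5 FPKM, 12 members had a median of 0.05 and all genes 0.21. CYP746A1 and CYP743B2, which were not called, had the next largest positive differences, 0.73 (SE 0.12, adjusted p 5.4e-04) and 0.73 (SE 0.10, adjusted p 1.6e-04), with every rescued library above every mutant library.

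In the comparison of rescued strain with wild type, no P450 gene was called, beside 2.31% of all genes tested, of which 0.634% rose and 1.67% fell. By limma, 9 of the 21 had an unadjusted p under 0.05 and 8 an adjusted p under 0.05, 38.1% of the members and 40.3% of all genes, a share near the background. Among all genes 18.5% were higher and 21.8% lower. The libraries did not overlap for 9 members, 42.9%, beside 48.5% of all genes. The 5 that were higher in the rescued strain were CYP771A1, CYP97C3, CYP55B1, CYP97A5 and CYP747A1, with differences from 0.94 down to 0.26. The 3 that were lower were CYP745A1, CYP51G1 and CYP739A5, with -0.43, -0.39 and -0.26 (adjusted p 0.023), the last of which did not pass under either rescaling, nor without any 1 of wild-type replicates 1 and 2 and rescued replicates 2 and 3. A pseudocount of 0.1 gave 2 calls, CYP771A1 and CYP55B1.

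Genes listed as possible electron donors were few. NCR2, matched from the list of P450 reductases, was at 8.61 ± 0.563 FPKM in the rescued strain, 11.6 ± 0.562 FPKM in the mutant and 10.0 ± 0.463 FPKM in the wild type, with the mutant above the wild type by 0.20 (SE 0.07, adjusted p 0.033) and the rescued strain below the mutant, with -0.40 (adjusted p 0.0011). The first difference did not pass with the replicate number as a block, at 0.20 (adjusted p 0.051), nor when wild-type replicate 1 or either of mutant replicates 1 and 3 was left out. CYB5, for cytochrome b5, lies next to CYP742A1 in the gene order of assembly v5.5. It varied widely between libraries of 1 strain, from 2.09 to 5.26 FPKM in the mutant, and its difference of mutant from wild type was 0.38 (SE 0.32, adjusted p 0.316). The same list held FNR1, the ferredoxin-NADP reductase of photosynthesis, at 2136 ± 144 FPKM in the rescued strain, 917 ± 74.5 FPKM in the mutant and 1742 ± 156 FPKM in the wild type, and CBR1 at 19.8 ± 0.767 FPKM in the rescued strain, 24.7 ± 1.59 FPKM in the mutant and 32.5 ± 2.45 FPKM in the wild type. FNR1 rose in the rescued strain against the mutant by 1.22 (adjusted p 2.9e-06), the only call in this list, and it was lost after quantile normalization, at 0.66 (adjusted p 3.5e-06). Over the 5 lists together, 5 of 40 tested genes rose and 8 fell in the mutant against the wild type, beside 4.6% and 4.8% of all genes. The rises included HCP1, HCP3 and HCP4, which passed the minimum mean only through the mutant. The counts became 5 and 5 after median ratios and 6 and 2 after quantile normalization. In the rescued strain against the mutant, 15 rose and 7 fell, beside 5.41% and 3.77% of all genes. HCP1, HCP3 and HCP4 were among these falls too, so the filter partly set that count. After median ratios these were 14 and 8, and after quantile normalization 11 and 8.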

How the data were processed

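PolyA RNA of 9 cultures was sequenced as paired reads of 125 bp, per the labels' protocols. The authors deposited FPKM per library, the unit named by the tables, and the submitters' processing notes name STAR 2.7.10b and Cuffdiff 2.0.2. No source used here gives the genome build or the settings. Groups were taken from the sample titles. The table of 1 value per strain was not used.

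Of 17609 genes, the 11360 whose 9-library mean reached 1 FPKM were tested on log2(FPKM + 1) with limma 3.58.1 in R 4.3.3, in 1 model of strain means with variances moderated along a mean trend. FPKM are not counts, so no count model was used. Depth was sought in the steps between low FPKM values. In genes under 0.15 FPKM, 17.3% to 31.4% lay within 5% of the most frequent ratio of 2 libraries of a strain, so whole fragments were not recovered, the depth stays unknown and no counting interval is given. The test was tried on simulated data for mutant against wild type: of 200 genes shifted by a log2 of 2 among 11360, 99.5% were recovered, with 2 unchanged genes called. The shifted genes were drawn only from those of higher wild-type level. The recovery therefore does not cover genes of low FPKM or differences near the minimum of 1 for a call. The simulated libraries held no general shift of abundant genes or of library sums. The count of unchanged genes called therefore does not cover calls made through such a shift. The labels speak of triplicate cultures, so p-values measure the spread between cultures of 1 strain.

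The P450 genes were matched by symbol. Of 88 symbols in 5 companion lists, alternative spellings included, 44 were matched, and CAS1 was left out because that symbol is used in this alga for a calcium sensor. Described in full were members called in any comparison, members of known role and the 3 of highest mean, and CYP743A2, CYP743B2 and CYP746A1 were added once their values were known. Of list members, those called were named, and the choice of others was made knowing their values. The members and lists were chosen with earlier results of these data known. Gene order was read from the RefSeq genes of assembly Chlamydomonas_reinhardtii_v5.5, which holds all 31 genes. No protein or promoter sequences were used here. Alternatives were pseudocounts of 0.1 and 5, no minimum or a minimum mean of 5 FPKM, median ratios, quantile normalization, the replicate number as a block, the 2 groups alone, moderation without trend, and leaving out each library. Python 3.11.15 and matplotlib 3.10.9 drew the figures.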

Additional observations from a re-analysis of the deposited data

How the results depend on the processing

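The 3 P450 genes called in the mutant against the wild type became 0 with a pseudocount of 5 and 5 with quantile normalization, which added CYP51G1 and CYP743B2. Against the wild type, the 0 calls in the rescued strain became 2 with a pseudocount of 0.1. The 13 companion genes called in the mutant became 8 with quantile normalization. The cause was not tested. Leaving out each library in turn gave 3 to 3 calls in the mutant, 4 to 4 in the rescued strain against the mutant and 0 to 0 against the wild type, with the same genes each time, and 11 to 14 companion genes in the mutant.

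Of 33 single-gene differences described in detail, recomputed under each alternative as 582 values, 6 had the opposite sign. They were CYP747A1 in the mutant with quantile normalization (0.29), and CYP97A6 in the rescued strain against the wild type, near 0 throughout. CYP97A6 was at -0.006 before any alternative. It turned positive with median ratios (0.040), quantile normalization (0.021) and some of the fits without 1 library, which ranged from -0.090 to 0.048.

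The same-numbered replicates were not treated as pairs. The reason was that the correlation of their deviations from strain means exceeded 0.1 in only 3 of 9 pairs (-0.13 to 0.16). By contrast, a library correlated best with its own number in 14 of 18 cases, which is not a reason against pairing. Whether same-numbered cultures shared conditions was not tested, so the results were also computed with the replicate number as a block. With the replicate block, 3, 4 and 0 P450 genes were called in the 3 comparisons, as without it, and 13 and 22 companion genes, but CYP55B1 in the rescued strain against the mutant and NCR2 in the mutant no longer passed the adjusted p threshold, and CYP743A2 in the rescued strain against the wild type now did. With a minimum mean of 5 FPKM, 12 members were left. Those that could not be tested included CYP744C1, CYP743B2, CYP55B1, CYP97A6 and CYP746A1. Unknown depth limits what can be said of members under 1 FPKM.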
